A study of Mus musculus with 12 samples.

Results

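The genes described here are 9 genes of the YAP/TAZ pathway, measured in basal epidermal cells around a healing tail wound. They are the coactivators Yap1 and Wwtr1 (the gene of TAZ), their DNA-binding partner Tead1, the target genes Ctgf, Cyr61 and Ankrd1, and Amotl2, Lats2 and Ajuba, which encode regulators of the pathway. A gene was measured where a probe set was paired with it and with no other gene. All 9 members were measured, by 18 probe sets, among 17097 genes. The brightest probe set of a gene, by its mean over the 12 arrays, leads, and the other probe sets are given beside it. The array annotation lists Ctgf as Ccn2 and Cyr61 as Ccn1.

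CD1 mice received a wound of 3 mm in the tail skin, and 3 regions were sampled at D4 and at D7 after wounding. The leading edge (LE) is here the epidermis taken with a 4 mm punch around the wound. The proliferative hub is the tissue taken next with a 6 mm punch, and the control is skin of the same days far from the wound. The paper describes these punches as enriching for the LE and the hub, so the LE samples may also hold proliferative cells. Each of the 6 groups has 2 samples, each a pool of 5 mice from which 300 living basal cells positive for α6-integrin and negative for CD34 were sorted. All mice were wounded, and no genotype or treatment distinguished the groups. The sources used here do not give the age of these mice. The labels call the samples biological replicates but do not say whether the pools held separate mice, so the p-values measure only the spread between these samples, which may in part be technical.

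YAP and TAZ are transcriptional coactivators that carry signals from cell shape, density and tension to the nucleus. When the Hippo kinases are active, LATS kinases phosphorylate YAP and TAZ, which are then held in the cytoplasm or degraded. When the kinases are inactive, YAP and TAZ enter the nucleus, bind TEAD factors and activate genes such as Ctgf and Cyr61. Several of their targets, among them Amotl2 and Lats2, encode inhibitors of the pathway. In skin, YAP and TAZ are known for their role in basal cell proliferation and in wound repair. The activity of YAP and TAZ is set mainly at the protein level, which these arrays did not measure.

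The promoters of the members are shown first, because they let a reader see which of these genes carry the letters that TEAD factors prefer next to their start. RefSeq promoters of build GRCm38.p6 were matched for 7 of the 9 members, in 9 windows of 250 bases before an annotated start. Ctgf and Tead1 had no entry. The letters GGAATG, searched on both strands, were found in 6 of the 7 genes and in 7 of the 9 windows. Of all 32851 promoter windows of the same length, 12.6% held them. The AP-1 letters TGANTCA were found in 0 of the 9 windows, against 6.75% of all windows, and the CArG box in 0 of 9, against 1.47%. A match is a description of these letters and shows no binding. A short stretch around the first match is printed 5′ to 3′ on the strand of the gene, with GGAATG, or its reverse complement CATTCC, in capitals.
Yap1, chr9:8004720-8004749, minus strand: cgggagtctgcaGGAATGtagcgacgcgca
Wwtr1, chr3:57576029-57576058, minus strand: ggtaaactcaaaGGAATGcagataggcgct
Cyr61, chr3:145650071-145650100, minus strand: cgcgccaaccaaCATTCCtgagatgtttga
Ankrd1, chr19:36120037-36120066, minus strand: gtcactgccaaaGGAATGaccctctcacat
Amotl2, chr9:102717727-102717756, plus strand: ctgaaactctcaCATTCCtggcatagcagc
Ajuba, chr14:54577830-54577859, minus strand: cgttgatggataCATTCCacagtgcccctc

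In Cyr61 the match began 103 bases before the start and lay on the opposite strand. In Amotl2 it began 65 bases before the start, also on the opposite strand. Ankrd1 and Ajuba each held 2 matches, beginning 210 and 123 bases before the start in Ankrd1 and 186 and 164 in Ajuba. The match of Wwtr1 is 1 site that lies in both of its overlapping windows. No match was found in either of the 2 windows of Lats2, which says only that these letters are absent there. Because Cyr61 gave the largest difference among the members, its whole window is shown, with the match in capitals.
Cyr61, chr3:145649986-145650235, minus strand: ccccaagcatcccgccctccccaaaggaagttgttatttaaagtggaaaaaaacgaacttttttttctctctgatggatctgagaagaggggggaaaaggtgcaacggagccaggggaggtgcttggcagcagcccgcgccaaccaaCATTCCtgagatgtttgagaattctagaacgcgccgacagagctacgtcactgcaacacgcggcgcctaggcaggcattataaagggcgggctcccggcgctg

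Of the 9 members, Cyr61 fell and Amotl2 rose in the LE on both days, and Ctgf and Lats2 fell in the LE at D7. Lats2 was called by its leading probe set, while the mean of all its probe sets gave -0.35 (adjusted p = 0.136, limma). The hub arrays of D7 also lay below control for Lats2, without a call. Yap1 was lower in the LE at D4. In the LE against control, 3 members passed limma's test at D4, 1 of them higher and 2 lower, at an adjusted p under 0.05. Over all genes, 8.3% passed as higher and 5.83% as lower in that comparison. At D7 4 members passed, 1 higher and 3 lower, beside 9.25% of all genes as higher and 5.37% as lower. The median difference of the 9 members was -0.03 at D4 and -0.30 at D7 on the log2 scale, beside 0.03 and 0.02 over all genes.

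In the hub against control no member passed limma's test on either day, with 2 members at an unadjusted p under 0.05 at D4 and 3 at D7, beside 11% and 12.7% of all genes. Few genes passed there at all. The share of all genes that passed as higher was 0.222% at D4 and 0.591% at D7, and as lower 0.105% and 0.17%. Between the LE and the hub, 2 members passed at D4 (Amotl2 higher, Cyr61 lower) and 1 at D7 (Cyr61, lower). Over all genes, 2.61% passed as higher and 2.15% as lower at D4, followed by 1.33% and 1.4% at D7. The LE and the hub were compared with the same control arrays, so those comparisons are not independent of each other.

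Intensities are log2 values after RMA, the normalization used by the authors. They are compared within a day only, because the medians of the arrays ran from 5.4 to 5.47 at D4 and from 4.25 to 4.29 at D7. The 2 arrays of a group correlated at 0.988 to 0.993 over all probe sets. In sorted pools, fewer cells of a type that express a gene and less RNA per cell cannot be told apart.

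**Figure D1:**
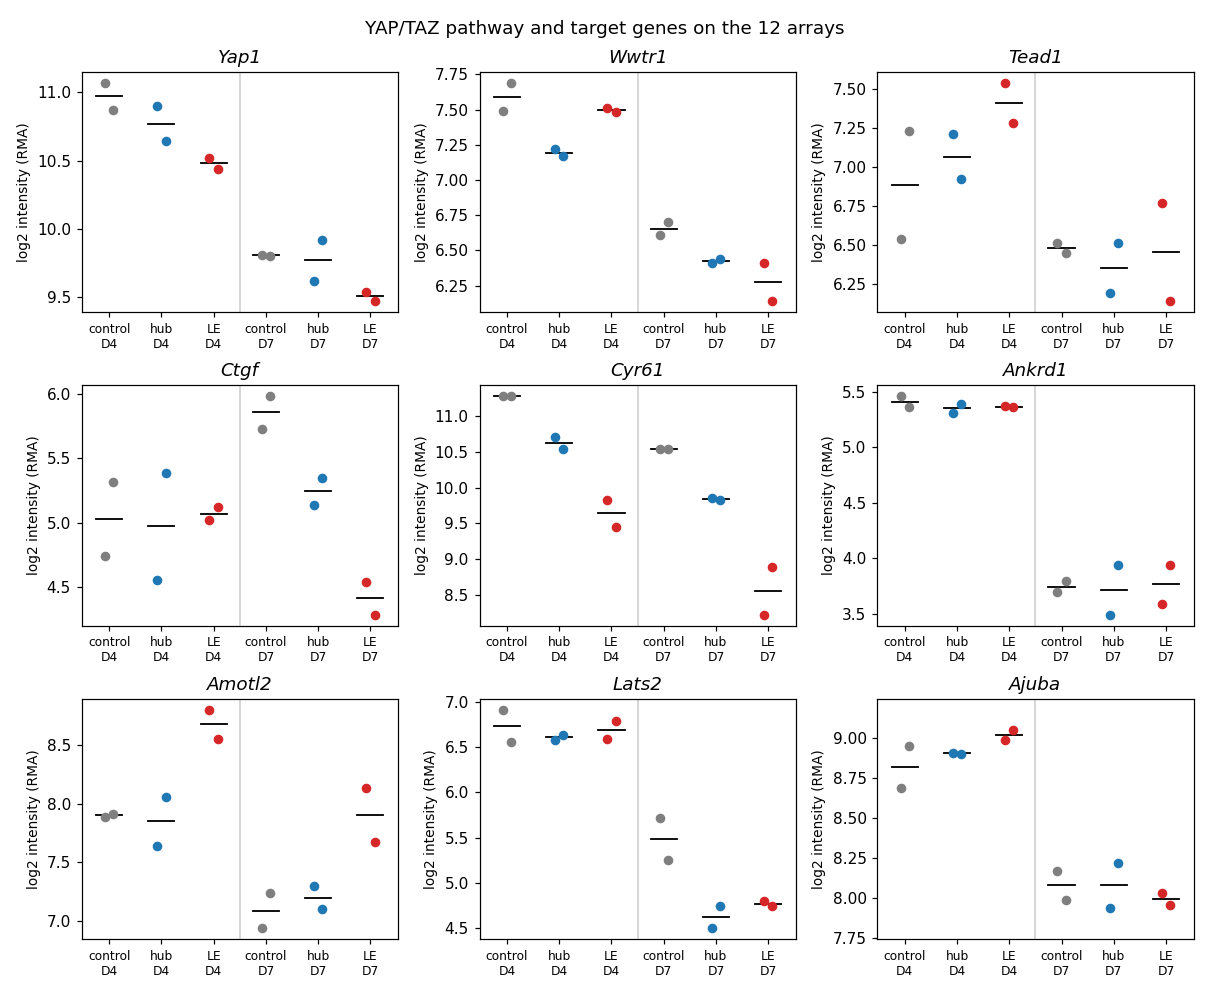
Intensity of the leading probe set of each member on the 12 arrays. The vertical axis is the RMA log2 intensity, points are single arrays, bars are group means, and the vertical line separates D4 from D7, which are not on a shared scale. Cyr61 falls from control to hub to LE on both days, while Amotl2 is highest in the LE.

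Yap1, the main coactivator, was bright in every group. At D4 it read 11.07 and 10.87 on the control arrays, 10.90 and 10.64 on the hub arrays, and 10.52 and 10.44 on the LE arrays. Both LE arrays lay below every control and hub array of that day. The LE was 1.41-fold lower than control at D4 (log2 difference -0.50, SE 0.14, n = 2 per group, adjusted p = 0.0363, limma). At D7 it read 9.81 and 9.80 in control, 9.62 and 9.92 in the hub, and 9.54 and 9.47 in the LE. The LE arrays were again the lowest, but the difference of -0.30 did not pass the test (adjusted p = 0.19, limma). The second Yap1 probe set gave -0.44 at D4 (adjusted p = 0.124 over all probe sets) and -0.16 at D7. The D4 call lay near the threshold and was lost in 8 of the 12 fits that left out 1 array. Without any 1 of the LE or control arrays of D4 the difference ran from -0.60 to -0.39. It was also lost without any 1 of the LE or control arrays of D7. There the difference stayed at -0.50, since arrays of D7 enter it only through the shared spread. On the arrays of D4 alone the adjusted p was 0.0892 (limma).

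Wwtr1 encodes TAZ, the paralogue of YAP. Its D4 values were 7.49 and 7.69 in control, 7.22 and 7.17 in the hub, and 7.51 and 7.48 in the LE. On this leading probe set the hub arrays of D4 lay below all others of that day. The difference from control of -0.40 missed the threshold after adjustment (SE 0.12, adjusted p = 0.211, limma). Its D7 values were 6.61 and 6.70 in control, 6.41 and 6.44 in the hub, and 6.41 and 6.14 in the LE. Control arrays were the highest at D7, and the LE difference of -0.38 also missed the threshold (adjusted p = 0.0553, limma). That LE difference was called in none of the 12 fits that left out 1 array. It was not called in 6 of the 8 other alternatives, with an adjusted p of 0.253 for the mean of all probe sets (limma). It passed in the other 2, at an adjusted p of 0.0372 with quantile normalization over all arrays and of 0.0408 among genes above the median only (limma). The other 2 probe sets of Wwtr1 gave 0.24 and 0.47 in the LE at D4, opposite in sign to the leading set (-0.10), and -0.28 and -0.24 at D7. In the hub at D4 those 2 sets overlapped with control. One read 6.51 and 6.74 against 6.60 and 6.68 in control, the other 6.14 and 6.38 against 6.05 and 6.36. The mean of all probe sets gave an adjusted p of 0.94 for the hub at D4 (limma).

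Tead1, a TEAD factor through which YAP and TAZ reach DNA, has 1 probe set. D4 arrays gave 6.54 and 7.23 in control, 7.21 and 6.92 in the hub, and 7.54 and 7.28 in the LE. D7 arrays gave 6.51 and 6.45 in control, 6.19 and 6.51 in the hub, and 6.77 and 6.14 in the LE. The spread between the arrays of a group was wide, and the LE difference of 0.52 at D4 was not larger than it allowed (SE 0.26, adjusted p = 0.239, limma). The LE difference at D7 was -0.02.

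Cyr61 encodes a secreted matrix protein of the CCN family and is among the most used readouts of YAP and TAZ. Its intensity at D4 was 11.27 and 11.27 in control, 10.70 and 10.54 in the hub, and 9.83 and 9.45 in the LE. Its intensity at D7 was 10.53 and 10.53 in control, 9.85 and 9.82 in the hub, and 8.23 and 8.89 in the LE. On both days the groups did not overlap and ran in the order control, hub, LE. Cyr61 fell against control 3.10-fold in the LE at D4 (log2 difference -1.63, SE 0.20, 95% interval -2.07 to -1.19, adjusted p = 0.000586, limma). At D7 it fell 3.91-fold (log2 difference -1.97, 95% interval -2.41 to -1.53, adjusted p = 0.000282, limma). Both calls held in each of the 12 fits that left out 1 array and in the 8 other alternatives, with adjusted p up to 0.00568.

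The LE also lay below the hub for Cyr61, with a log2 difference of -0.98 at D4 (adjusted p = 0.0205) and of -1.28 at D7 (adjusted p = 0.0116, limma). Each call was lost in 3 of the 12 fits that left out 1 array, which left 1 array in a group. In those fits at D4 the difference was -0.79 without LE replicate 2, -0.91 without hub replicate 1 and -1.06 without hub replicate 2. At D7 it was -0.95 without LE replicate 1, -1.26 without hub replicate 1 and -1.29 without hub replicate 2. The middle position of the hub against control was not called. Its difference was -0.65 at D4 (adjusted p = 0.222) and -0.69 at D7 (adjusted p = 0.161, limma). A second Cyr61 probe set, of a class that can cross-hybridize with similar transcripts, had LE differences of -1.73 at D4 and -1.95 at D7 and hub differences of -0.71 and -0.73.

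Ctgf, the other CCN gene among the members, is a classical TEAD target with roles in matrix production. Its single probe set was dim, at or below the array median on all 6 arrays of D4. There it read 4.74 and 5.32 in control, 4.56 and 5.39 in the hub, and 5.02 and 5.12 in the LE. The groups overlapped at D4 (LE difference 0.04, 95% interval -0.55 to 0.62). At D7 it read 5.73 and 5.98 in control, 5.14 and 5.35 in the hub, and 4.54 and 4.29 in the LE. At D7 the groups did not overlap, and Ctgf fell 2.71-fold in the LE (log2 difference -1.44, SE 0.26, adjusted p = 0.00581, limma). The hub difference of -0.60 (adjusted p = 0.38) and the LE difference from the hub of -0.83 (adjusted p = 0.142) did not pass. On the arrays of D7 alone the LE difference from the hub had an adjusted p of 0.026. The change of the LE difference from D4 to D7 was -1.47 (SE 0.37, adjusted p = 0.313, limma), so a difference between the days was not shown.

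Ankrd1 encodes an ankyrin-repeat protein best known from muscle and is a common YAP target. Arrays of D4 gave 5.46 and 5.36 in control, 5.31 and 5.39 in the hub, and 5.37 and 5.36 in the LE. Arrays of D7 gave 3.69 and 3.79 in control, 3.49 and 3.94 in the hub, and 3.59 and 3.94 in the LE. These values of the leading probe set lay close to or below the array medians and the groups overlapped throughout. The LE difference was -0.04 at D4 and 0.02 at D7 (SE 0.16), and none of its comparisons passed the test. The second probe set was dimmer. Its D4 arrays gave 4.03 and 4.08 in control, 4.12 and 4.05 in the hub, and 4.15 and 4.16 in the LE. Its D7 arrays gave 3.07 and 3.21 in control, 3.38 and 3.29 in the hub, and 3.05 and 3.26 in the LE. On that set the LE of D4 and the hub of D7 lay slightly above control.

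Amotl2 encodes an angiomotin-like scaffold that binds YAP and holds it at junctions, and it is itself induced by YAP. Its 1 probe set read 7.89 and 7.91 in control, 7.64 and 8.06 in the hub, and 8.80 and 8.55 in the LE at D4. By D7 the values were 6.94 and 7.24 in control, 7.30 and 7.10 in the hub, and 8.13 and 7.67 in the LE. Both LE arrays lay above all control and hub arrays on each day, and hub and control overlapped. Amotl2 rose 1.71-fold in the LE at D4 (log2 difference 0.78, SE 0.19, adjusted p = 0.0237, limma) and 1.75-fold at D7 (0.81, adjusted p = 0.0198). Its LE difference from the hub was 0.82 at D4 (adjusted p = 0.0394) and 0.70 at D7 (adjusted p = 0.0918, limma). The hub difference from control was -0.05 at D4 and 0.11 at D7, with 95% intervals of -0.48 to 0.38 and -0.32 to 0.53.

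The calls of Amotl2 were lost in some fits, with the difference above 0 in every fit. Against control at D4 the call was lost without LE replicate 1 (difference 0.65), control replicate 1 (0.77) or control replicate 2 (0.78). On the arrays of D4 alone its adjusted p was 0.0512 (limma). At D7 the call was lost without LE replicate 1 (0.58) or control replicate 1 (0.66). Against the hub at D4 the call was lost in 8 of the 12 fits that left out 1 array. Those fits left out any LE or hub array of D4 or any hub or control array of D7. The difference ran from 0.62 to 1.03 without an LE or hub array of D4 and stayed at 0.82 without an array of D7. On the arrays of D4 alone the adjusted p against the hub was 0.0973 (limma).

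Lats2 encodes a kinase that phosphorylates YAP and TAZ and is also a YAP target. The D4 values were 6.91 and 6.55 in control, 6.58 and 6.63 in the hub, and 6.59 and 6.79 in the LE, and the groups overlapped. The D7 values were 5.72 and 5.25 in control, 4.50 and 4.74 in the hub, and 4.80 and 4.74 in the LE. Both wound regions lay below both control arrays at D7. The LE difference was -0.72 at D7 (SE 0.18, adjusted p = 0.0237, limma) and the hub difference was -0.87 (adjusted p = 0.0655). The hub difference was not called in 10 of the 12 fits that left out 1 array, and was called in the 2 without a control array of D4. It was not called in 7 of the 8 other alternatives, with an adjusted p of 0.385 for the mean of all probe sets (limma). Among genes above the median only it passed (adjusted p = 0.0488, limma). The 4 other probe sets of Lats2 gave LE differences at D7 of -0.28, -0.35, 0.26 and -0.64, none past the test, and the mean of all 5 gave -0.35 (adjusted p = 0.136). The LE call was also lost without LE D7 replicate 1 (adjusted p = 0.1), LE D7 replicate 2 (0.106) or control D7 replicate 1 (0.147, log2 difference -0.48).

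Ajuba encodes a LIM-domain scaffold of adherens junctions that binds and restrains LATS kinases. At D4 it read 8.69 and 8.95 in control, 8.91 and 8.90 in the hub, and 8.99 and 9.05 in the LE. At D7 it read 8.17 and 7.99 in control, 7.94 and 8.22 in the hub, and 8.03 and 7.96 in the LE. The LE arrays were the highest at D4 by a small margin and overlapped with control at D7. The LE difference was 0.20 at D4 (SE 0.13, adjusted p = 0.396, limma) and -0.09 at D7, and no comparison of Ajuba passed.

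**Figure D2:**
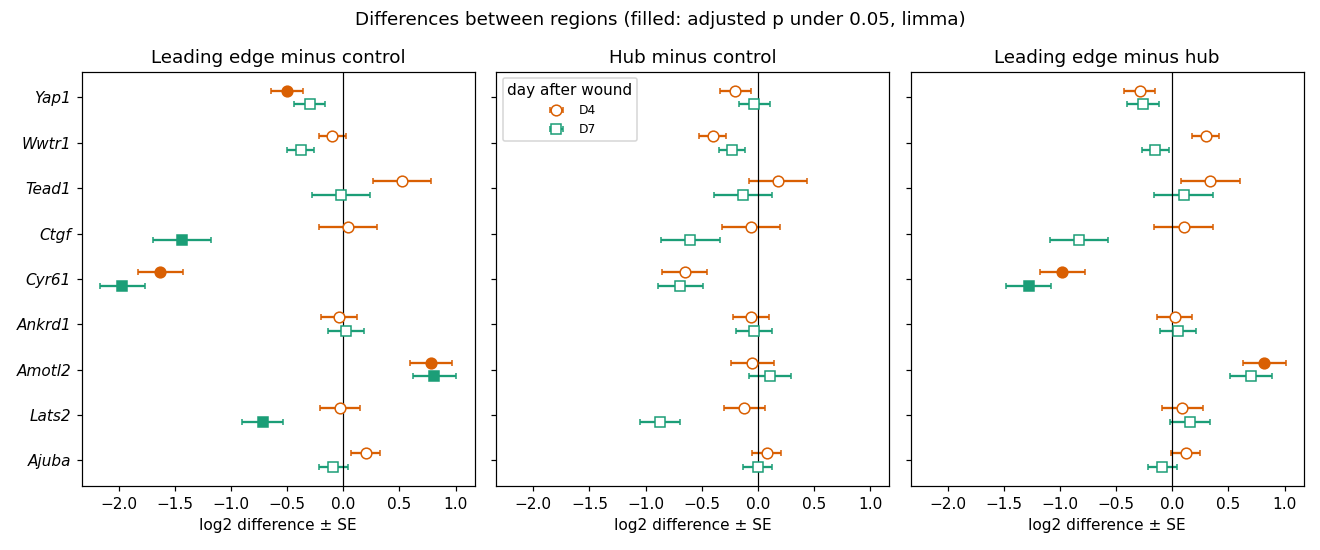
Log2 differences of the 9 members between regions, with standard errors, at D4 (circles) and D7 (squares). Filled symbols passed limma at an adjusted p under 0.05. Cyr61 lies left of 0 in all 3 panels, at -1.63 and -1.97 against control in the LE, and Amotl2 is filled on the right at 0.78 and 0.81 in the same panel.

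The study selected genes by a fold rule, a change of more than 2-fold in each replicate. The methods do not say which array a replicate was compared with, and here it was the array that bears its number in the other group, a choice of this re-analysis. In the LE against control, Cyr61 alone met it at D4, and Ctgf and Cyr61 met it at D7, all 3 downwards. Of all genes, 3.82% met the rule at D4 and 3.34% at D7. In the hub no member met it, beside 0.445% of all genes at D4 and 0.509% at D7. Between the LE and the hub no member met it, beside 1.78% at D4 and 1.16% at D7. By the fold of group means, Cyr61 was past 2-fold between the LE and the hub at D7 (2.42-fold lower).

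The leading probe sets were also read without any test. On them 3 members had both LE arrays above both control arrays at D4 (Tead1, Amotl2 and Ajuba), and 2 had them below (Yap1 and Cyr61). Such a separation was common with 2 arrays against 2, since 29.2% of all genes lay above and 20.2% below at D4. At D7, 1 member was above (Amotl2) and 5 were below (Yap1, Wwtr1, Ctgf, Cyr61 and Lats2), beside 31.5% of all genes above and 23.5% below. The hub arrays lay below control for 2 members at D4 (Wwtr1 and Cyr61) and for 4 at D7 (Wwtr1, Ctgf, Cyr61 and Lats2), and above it for none. Of all genes, 18% lay below and 21.2% above in the hub at D4, and 18.1% below and 25.8% above at D7. Whether a region's difference itself changed from D4 to D7 was tested for each member and region. None of these 27 tests passed limma's threshold, with 2 members at an unadjusted p under 0.05 for the LE against control, 1 for the hub and 2 for the LE against the hub. At that unadjusted p stood 7.82%, 4.56% and 5.11% of all genes. After adjustment, 0.0292% of all genes passed for the LE against control, 0% for the hub and 0.0175% for the LE against the hub.

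**Figure D3:**
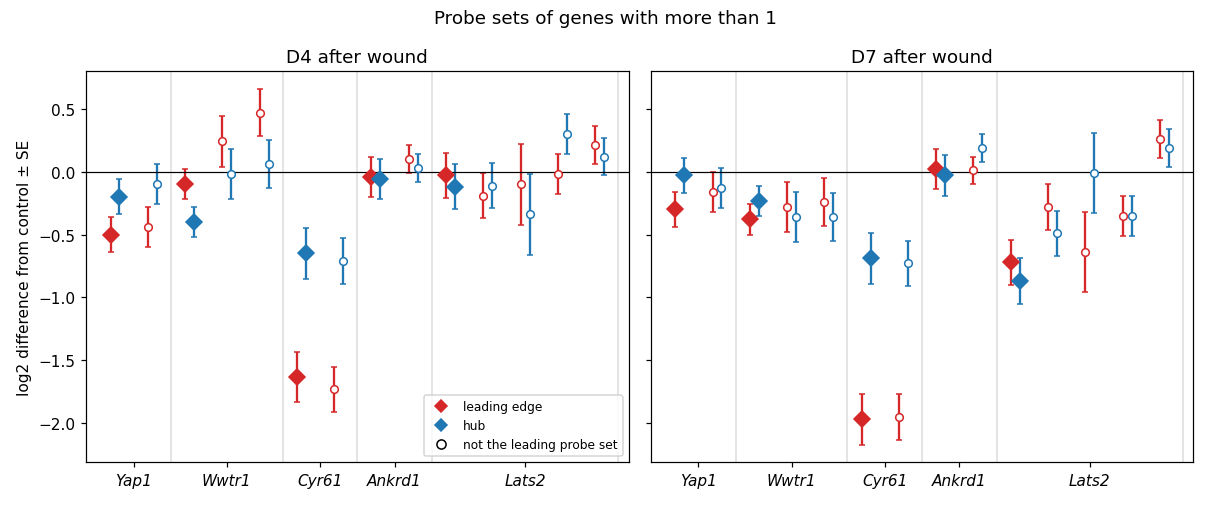
Log2 difference from control, with standard error, of every probe set of the 5 members that have more than 1. Diamonds are the leading sets, open circles the others, red the LE and blue the hub. The 2 sets of Cyr61 lie close together on both days (-1.63 and -1.73 in the LE at D4), while those of Lats2 at D7 run from -0.72 to 0.26 in the LE.

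The rest of the pathway was read from 4 lists, described here by role, with the shares of all genes that passed in the LE (8.3% higher and 5.83% lower at D4, 9.25% and 5.37% at D7) to read their counts against. The partners of YAP and TAZ comprised 7 TEAD and VGLL genes, all measured. At D4 3 rose in the LE, and at D7 2 rose and 1 fell, with list medians of 0.31 and 0.13 beside 0.03 and 0.02 over all genes. Tead4, another TEAD factor, read 6.49 and 6.22 in control, 7.30 and 6.76 in the hub, and 9.03 and 8.42 in the LE at D4. The groups of D4 did not overlap, and the LE difference was 2.37 (SE 0.22, adjusted p = 0.000148, limma), followed by 1.53 at D7 (adjusted p = 0.0018). The LE also exceeded the hub for Tead4, with a difference of 1.70 at D4 (adjusted p = 0.00249, and 0.0507 on the arrays of D4 alone) and 1.00 at D7 (adjusted p = 0.0463, limma). That D7 call was lost in 6 of the 12 fits that left out 1 array, which left out any array of D7, up to an adjusted p of 0.205 without hub D7 replicate 1, and with the mean of its probe sets (0.70, adjusted p = 0.115). The second probe set of Tead4 gave 1.92 in the LE at D4 and 0.64 at D7.

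Vgll3, a vestigial-like TEAD cofactor, had an LE difference of 0.85 at D4 (adjusted p = 0.0467) and 1.25 at D7 (adjusted p = 0.00873, limma). Its level was low, at 4.26 and 4.12 in control and 4.62 and 5.46 in the LE of D4. Another, dimmer probe set gave LE differences of 1.23 at D4 (adjusted p = 0.000796 over all probe sets, limma) and 1.09 at D7 (0.00188). The dimmest set gave 0.04 at D4 and 0.11 at D7. The calls of Vgll3 that follow are those of the leading set. The D4 call was lost in 5 of 7 other alternatives and in 9 of the 12 fits that left out 1 array, up to an adjusted p of 0.239 without LE D4 replicate 2, where the difference was 0.43. The D7 call was lost in 2 of them, up to 0.0819 without LE D7 replicate 1, and the mean of its probe sets gave 0.81 at D7. Against the hub Vgll3 was 1.10 higher at D7 (adjusted p = 0.0488, limma), a call lost in 10 of these fits, up to 0.288 without LE D7 replicate 1. Vgll1 was higher by 0.51 at D4 (adjusted p = 0.0398), a call lost in 10 of these fits, up to 0.195 without control D4 replicate 2. Tead3 went the other way, by -0.58 at D7 (adjusted p = 0.0479), lost in 9 of them, up to 0.272 without control D7 replicate 1, where it was -0.38.

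Of the Hippo kinase core, 11 of 12 listed genes were measured and only Map4k4 passed. Map4k4 encodes a MAP4K kinase that can activate LATS kinases, and it also acts in cell migration. It read 8.60 and 8.12 in control, 8.73 and 8.75 in the hub, and 9.93 and 9.71 in the LE at D4. The LE lay apart from both other groups, with a difference from control of 1.46 at D4 (SE 0.17, adjusted p = 0.000468) and of 1.09 at D7 (adjusted p = 0.00263, limma). Against the hub it was 1.08 higher at D4 (adjusted p = 0.00658), with an adjusted p of 0.0543 without LE D4 replicate 1 and 0.06 on the arrays of D4 alone, and 0.74 higher at D7 (adjusted p = 0.0517), which missed the threshold. The list medians in the LE were 0.04 and 0.13.

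Of the upstream regulators of Hippo signalling, 18 of 21 were measured. At D4 1 fell in the LE, and at D7 1 rose and 3 fell, with medians of -0.08 and -0.04. Ptpn14, a phosphatase that binds YAP and restrains it, read 8.70 and 8.95 in control, 7.77 and 8.46 in the hub, and 5.57 and 7.07 in the LE at D4. Its groups did not overlap at D4, and the LE difference was -2.50 (SE 0.39, adjusted p = 0.00237, limma). The D7 values were 8.77 and 8.80 in control, 8.08 and 8.05 in the hub, and 7.01 and 7.07 in the LE, a difference of -1.74 (adjusted p = 0.0149). All 3 probe sets of Ptpn14 fell, the other 2 with differences of -2.61 and -2.32 at D4. At D7 those 2 gave -2.57 and -1.75 (adjusted p = 0.00148 and 0.00295 over all probe sets, limma). The D7 call of the leading set was lost without any 1 of the 4 LE and control arrays of D7. Its difference there ran from -1.77 to -1.72.

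The other regulators past the test in the LE were called at D7 by their leading probe sets. Wwc1 (KIBRA), a scaffold that activates LATS, rose by 1.14 (adjusted p = 0.00774, limma), with an adjusted p up to 0.0658 without LE D7 replicate 1, and by 0.71 as the mean of its probe sets. Limd1, a LIM protein of the Ajuba family, fell by 0.80 (adjusted p = 0.0155), with an adjusted p up to 0.102 without LE D7 replicate 2. The second Limd1 probe set gave -1.02 at D4 (adjusted p = 0.000574 over all probe sets, limma) and -0.93 at D7. For Wwc1 another set gave 0.78 at D4 (adjusted p = 0.0339 over all probe sets, limma), and the rest gave 0.37 and 0.09. Wwc2 differed by -0.36 (adjusted p = 0.0444, limma), a call lost in 10 of the 12 fits and in 5 of 8 other alternatives. Without control D7 replicate 1 the difference was -0.32. In the hub at D7 Wwc2 differed by about as much, -0.35, without a call (adjusted p = 0.192 over all probe sets, limma). Between the LE and the hub, Ptpn14 alone passed in this list, by -1.80 at D4 (adjusted p = 0.0285), a call lost in 6 of the 12 fits, up to 0.195 without hub D4 replicate 2, and 0.182 on the arrays of D4 alone. Without LE D4 replicate 1 that difference was -1.05 (adjusted p = 0.0688).

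Of 24 other YAP/TAZ target genes 19 were measured, and they did not move one way. At D4 3 rose and 3 fell in the LE, and at D7 2 rose and 3 fell, with medians of -0.03 and -0.12. Nt5e, which encodes the ecto-nucleotidase CD73, read 6.63 and 6.67 in control, 6.67 and 6.79 in the hub, and 7.69 and 7.99 in the LE at D4. At D7 it read 5.47 and 5.63 in control, 5.83 and 5.57 in the hub, and 6.85 and 6.83 in the LE. The LE stood apart on both days, with a difference of 1.19 at D4 (SE 0.13, adjusted p = 0.000398) and 1.29 at D7 (adjusted p = 0.000328, limma), and also from the hub, by 1.11 and 1.14 (adjusted p = 0.00164 and 0.00406). A second Nt5e probe set gave 1.74 on both days, and a dim one gave -0.17 and 0.10.

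Fjx1, a secreted regulator related to Four-jointed, had an LE difference of -0.87 at D4 (adjusted p = 0.00407) and -0.90 at D7 (adjusted p = 0.00383, limma). A second Fjx1 probe set gave -0.68 and -1.21, and a dim one gave 0.09 and 0.13, and the mean of all gave -0.49 at D4. Birc5 (survivin), which acts in mitosis, rose by 1.41 at D4 (adjusted p = 0.0192), on 7.73 and 8.99 in control, 9.75 and 9.47 in the hub, and 9.81 and 9.74 in the LE. Its hub difference was 1.25 (adjusted p = 0.166). The LE call was lost without either LE array of D4 (adjusted p up to 0.0886), and without control D4 replicate 1 the difference was 0.78 (adjusted p = 0.0519). Rbms3, an RNA-binding protein, gave -1.11 at D4 (adjusted p = 0.00387) and -0.96 at D7 (adjusted p = 0.00871, limma), on a dim probe set, while its other sets ran from -0.65 to 0.13 and the mean of all gave -0.42 and -0.37. Its D7 call was lost in 2 of the 12 fits, up to 0.0732 without LE D7 replicate 1. Crim1, Foxf2 and Cdc42ep3, named after their values were seen, also passed, Crim1 by -0.61 at D4 and -0.74 at D7, Cdc42ep3 by 0.63 at D7, and Foxf2, which lay below the array median on all 12 arrays, as higher at D4. Each of these 4 calls was lost without some single array. Crim1 gave -0.39 at D4 without control D4 replicate 2 (adjusted p = 0.257), and Cdc42ep3 gave 0.40 without LE D7 replicate 1 (adjusted p = 0.223). Against the hub, Nt5e passed on both days and Igfbp3, also named after its value was seen, at D4 (0.79, adjusted p = 0.0215). Igfbp3 was not called against control (0.26, adjusted p = 0.371). Its call against the hub was lost without LE D4 replicate 1 or either hub array of D4 (adjusted p up to 0.134), and on the arrays of D4 alone (0.113).

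In the hub no gene of any of the 4 lists passed limma's test. At an unadjusted p under 0.05 there were 2 partners at D4 and 1 at D7, 2 kinase core genes at D4 and 0 at D7, 2 and 6 upstream regulators, and 9 and 8 other targets. The measured genes of these lists number 7, 11, 18 and 19, and 11% of all genes at D4 and 12.7% at D7 reached that p. The median of the other targets in the hub was -0.31 at D4 and -0.20 at D7, beside 0.01 and 0.02 over all genes. Over the 4 lists, 6 of the 11 LE calls at D4 and 4 of the 13 at D7 held in all 12 fits that left out 1 array. Those held on both days were Tead4, Map4k4, Nt5e and Fjx1, and at D4 Ptpn14 and Rbms3 as well.

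**Figure D4:**
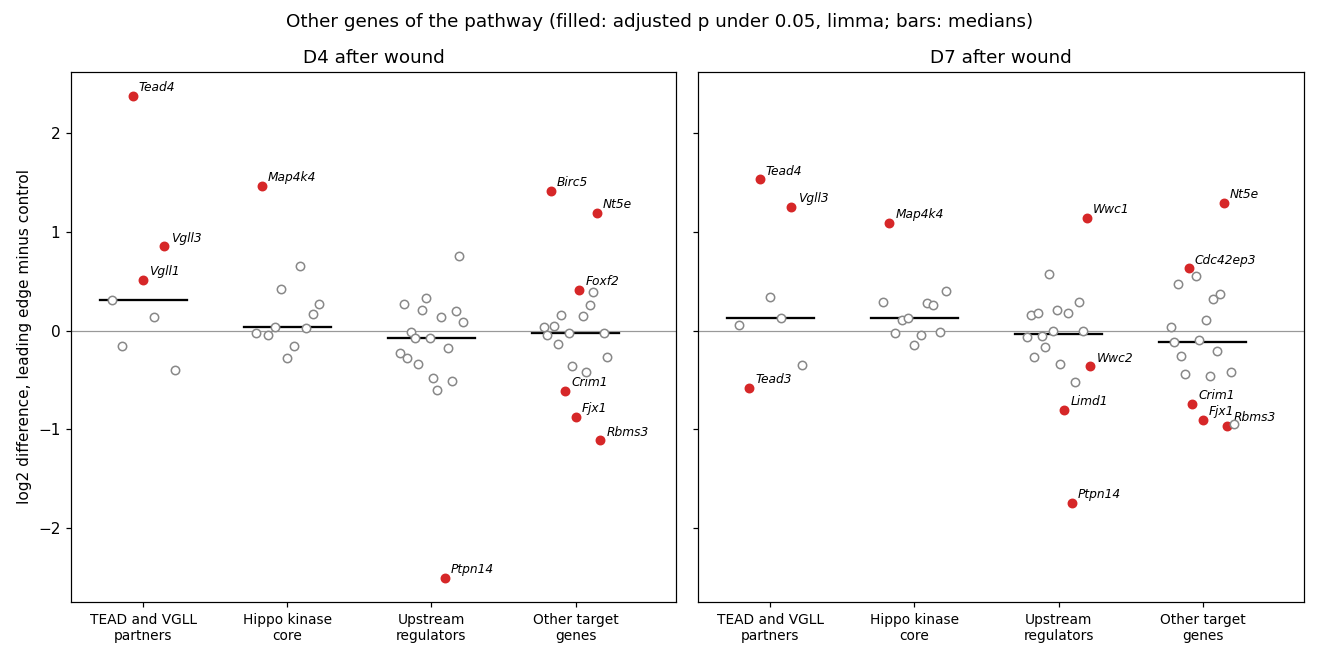
Log2 difference of the LE from control for each measured gene of the 4 pathway lists, at D4 and D7. Filled red points passed limma at an adjusted p under 0.05, open points did not, and bars are list medians. The medians stay between -0.12 and 0.31 while single genes such as Tead4 (2.37 at D4) and Ptpn14 (-2.50 at D4) lie far out on opposite sides.

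Cyr61 and Amotl2 were the members called in at least 2 of the 4 comparisons with control. For each, the genes most like it were found by the root mean square distance between their 4 log2 differences from control, among 8548 genes with a mean above the median. Nearest to Cyr61 were Txnip (distance 0.11), Olig1 (0.14) and Cdh13 (0.14). The LE differences of Txnip were -1.69 at D4 and -1.76 at D7, and its hub differences were -0.62 and -0.70. Nearest to Amotl2 were Tjp1 (0.06), Plau (0.09) and Map7d1 (0.09). Tjp1, which encodes the junctional scaffold ZO-1, had LE differences of 0.85 and 0.79 and hub differences of -0.04 and 0.19.

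The sorted cells carried the markers of their gate. All 6 basal keratinocyte markers lay above the array median in every group, and their linear intensities summed to between 28800 and 31000 at D4 and between 15000 and 17200 at D7. Itga6, the gene of the sorted integrin, was 0.42 higher in the LE at D4 (adjusted p = 0.0327, limma), and Cd34 was below the median everywhere. Of 6 endothelial markers, which bear on the CCN genes because vessels express them too, 2 passed as higher in the LE at D7. Their summed intensity there was 286 to 348, against 136 to 156 in the hub and 131 to 165 in control. Tek lay below the array median in every group, and at D4 4 of the 6 lay above it in each group. At D7 5 lay above it in the LE, 2 in the hub and 3 in control. Cyr61 and Ctgf were lowest in that same LE group, and the part of the endothelial markers in this was not tested.

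Of 7 fibroblast markers, 0 passed in the LE at D4 and 1 passed as lower at D7. Col1a2, Col3a1, Pdgfra and Lum lay below the array median in every group. In each group 3 of the 7 lay above it, except the LE of D7, where 2 did. Summed over the list, the LE of D4 gave 429 to 785 and control 432 to 660, while the LE of D7 gave 390 to 394 and control 226 to 297. Of 6 smooth muscle and pericyte markers only Acta2 passed, with LE differences of 2.11 at D4 and 2.51 at D7, while Myh11, Cnn1, Des and Rgs5 stayed below the array median in every group. Of 5 suprabasal keratinocyte markers, 3 lay above the array median in every group. Krt1 and Krt10 were lower in the LE at D4, with differences of -0.77 and -0.69. Of 5 bulge markers, Sox9 was lower in the LE at D4, by -0.61. At D4 the 5 melanocyte markers summed to 197 to 219 in the LE, 266 to 2180 in the hub and 273 to 955 in control, and 0 of them passed. The 6 immune markers summed to 146 to 167 in the LE and 169 to 200 in control at D4, and 0 passed on either day. The part of these markers in the differences of the members was not tested.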

How the data were processed

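Basal epidermal cells of 6 groups of 2 samples were profiled on Affymetrix mouse PM strip arrays after whole-transcriptome amplification. The authors deposited log2 intensities after RMA, a background correction, normalization and probe set summary named in the submitters' processing notes and the methods. Its version and whether the days were normalized apart are not given in the sources used here. Of 45141 probe sets, 28898 were paired with 1 gene, 551 with several and 15588 with none, 104 were array controls, and 28689 were matched to current symbols by gene identifier. The number of arrays limits the precision.

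Each gene took its brightest probe set. limma 3.58.1 (R 4.3.3; lmFit, eBayes) was fitted to the 12 arrays with 6 groups and 6 residual degrees of freedom, two-sided, with Benjamini-Hochberg adjustment over 17097 genes. Regions were compared within a day in 6 comparisons, and 3 tests asked whether a difference changed between days. The methods name no test, only the fold rule. They speak of more technical repeats than the 2 samples a group that the labels give. The script was tested on simulated data. Alternatives were other scalings, probe set rules, a filter on dim genes, another prior, the arrays of the day only, a replicate block and leaving out each array. The members and lists were chosen with earlier results of these data known. Beside all members, the text names up to 4 called genes per list with the largest change in the LE, called genes that oppose their list, and the 3 genes most like each member called in at least 2 comparisons with control. Protein sequences were not used here.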

Additional observations from a re-analysis of the deposited data

How the results depend on the processing

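No member changed direction where it was called. The share of all genes called under each alternative was not counted. A changed count of members below therefore cannot be set against the change over all genes. Of the differences of single members under alternatives, 1534 kept their side of the threshold, 35 lost a call and 6 gained one. Most of the 1534 were never called in the main fit and so had no call to lose. The 35 are therefore to be read against the few called differences only. With the arrays of the day only, the members called fell from 3 to 1 in the LE against control at D4 (Cyr61) and from 2 to 1 in the LE against the hub at D4 (Cyr61), and rose from 1 to 2 against the hub at D7 (Ctgf and Cyr61). Among genes above the median only, the hub against control at D7 went from 0 to 1 (Lats2). By the fold of group means, 1 member (Cyr61) in place of 0 was past 2-fold between the LE and the hub at D7.

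Leaving out 1 array gave 1 to 3 members in the LE against control at D4, with 1 without LE replicate 1 or either control replicate of D4. It gave 2 to 4 at D7, with 2 without LE replicate 1 or control replicate 1 of D7. It gave 0 to 2 between the LE and the hub at D4, with 0 without LE replicate 2 or either hub replicate of D4, and 0 to 1 at D7, with 0 without LE replicate 1 or either hub replicate of D7. It gave 0 to 1 in the hub at D7, with 1 (Lats2) without either control replicate of D4, and 0 in the hub at D4. With 1 array left in a group, its spread was assumed to be that of the other groups.

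The labels give replicate numbers but no shared mice. Deviations of same-numbered arrays correlated at 0.18 to 0.27 at D4 and at -0.01 to 0.07 at D7, and with 2 numbers a day this was too little to take them as pairs. With the replicate block, the LE against the hub at D4 had 1 member called (Cyr61) in place of 2, and Amotl2 had an adjusted p of 0.06 there. The other comparisons kept their count with the block.

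With 2 arrays a group, the median SE of a difference over genes was 0.14 on the log2 scale, and Ankrd1 and, at D4, Ctgf read near or below the array medians.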
